A study of Mus musculus with 28 samples.

Results

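The 42 genes described here are classical interferon-stimulated genes and genes of MHC class I antigen presentation. They were chosen by symbol, with earlier results of these data known. They were followed by their Ensembl IDs in tables that list 55416 gene IDs per library. All 42 were found. They fall by role into 23 induced antiviral effectors, 5 transcription factors and feedback genes, 3 cytosolic RNA sensors, 6 genes of class I presentation and 5 other interferon-induced genes. The data were 28 libraries made with QuantSeq, which sequences 1 tag near the 3′ end of each polyadenylated mRNA, from the cortex and the heart of C57BL/6J mice. At postnatal day 1 (newborn), 3 controls labelled Y334C WT were set against 3 mice labelled Y334C MT in each tissue. These newborns carry the Y334C missense change in Sepsecs, which carries out the last step of making selenocysteine, a step that takes place on the tRNA. At postnatal day 75 (adult), 3 controls labelled Gpx4 WT were set against 5 mice labelled Gpx4 MT in each tissue. The design text names the adult mutants as Sepsecs Y334C with Gpx4 U/C, where the letters stand for selenocysteine and cysteine in Gpx4, an enzyme that reduces lipid peroxides. The labels do not give the Sepsecs genotype of the adult controls, so the adult groups may differ at both genes, and an adult difference cannot be assigned to either. They also do not say whether cortex and heart came from the same mice. A missense change need not alter how many tags are counted, so the levels of Sepsecs and Gpx4 were not used to check the labels.

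Type I interferons bind a receptor found on nearly all cells and act through the kinases Jak1 and Tyk2. A complex that holds Stat2 and Irf9 then binds the interferon-stimulated response element (ISRE) in the promoters of these genes, whereas interferon-gamma acts mainly through the GAS element. The induced proteins limit viruses at many steps. Class I molecules with B2m carry peptides to the cell surface, where cytotoxic T cells read them. In the healthy brain class I genes are low in most cells, and microglia are among the cells that answer interferon strongly.

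The promoters are shown first because the ISRE is what many of these genes have in common. RefSeq promoter windows on GRCm38.p6, from 250 bases before to 50 bases after the start, were available for 32 of the 42 genes. The ISRE was searched as GAAA and GAAA with any 2 bases between them, and the GAS element as TTCNNNGAA, on both strands. An ISRE match was present in 15 of the 32 windows (46.9%), against 3.99% of the 27025 genes with a window. A GAS match was present in 7 of the 32 (21.9%), against 9.55% of genes. Matches of both that overlap each other were found in 2 of the 32 (6.25%), against 0.0851% of genes. By role, an ISRE match was found in 11 of 18 effectors but in 1 of 6 class I genes, B2m. The stretches printed here are from 5 effectors among the 12 genes with the smallest p in the comparison of the adult tissues, and from B2m, each with a match before the start. Gbp3 has such a match too and is not printed. They are on the strand of the gene, and capitals mark the ISRE matches, some on the other strand.
Isg15, chr4:156200840-156200919, minus strand: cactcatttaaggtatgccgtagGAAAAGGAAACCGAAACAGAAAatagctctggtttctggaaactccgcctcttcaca
Bst2, chr8:71537552-71537631, minus strand: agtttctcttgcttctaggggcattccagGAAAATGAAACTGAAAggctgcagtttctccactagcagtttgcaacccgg
Ifit1, chr19:34640769-34640848, plus strand: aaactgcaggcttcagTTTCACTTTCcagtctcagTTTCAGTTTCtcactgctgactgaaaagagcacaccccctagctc
Ifit3, chr19:34583372-34583451, plus strand: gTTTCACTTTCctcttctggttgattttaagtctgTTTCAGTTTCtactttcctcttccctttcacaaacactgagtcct
Rsad2, chr12:26456528-26456607, minus strand: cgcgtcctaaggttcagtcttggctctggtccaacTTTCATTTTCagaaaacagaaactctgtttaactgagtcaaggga
B2m, chr2:122147513-122147592, plus strand: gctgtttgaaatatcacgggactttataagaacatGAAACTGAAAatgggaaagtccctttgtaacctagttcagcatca
In Isg15 the matches run into each other as a repeated element and the last one ended 57 bases before the RefSeq start. The last match ended 115 bases before the start in Bst2, 76 in Ifit1, 113 in Ifit3, 111 in Rsad2 and 130 in B2m. A match is a description of the letters and does not show that a factor binds there.

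Libraries held between 2997738 and 8779631 counts. Levels are given as CPM, counts scaled to library size, and 1 count equalled 0.114 to 0.334 CPM. Marker genes fitted the tissue labels: the summed level of 10 cardiomyocyte markers was 49350 to 85790 CPM in heart libraries and 47.3 to 652 CPM in cortex libraries, and 8 neuron markers summed to 4895 to 9356 CPM in cortex. Several libraries stood apart. Adult cortex mutant 5 held the 652 CPM of cardiomyocyte markers, against 123 to 242 CPM in the other adult cortex libraries. Of the 9 cardiomyocyte markers tested in adult cortex, 8 had a higher mutant mean, and their part in the results was not tested. Adult heart control 1 had 40.7% mitochondrial counts, against 17.8% to 29.1% in the other adult hearts. This library and the adult libraries numbered 2 of both tissues and genotypes had 357 to 1020 CPM of Ccdc36, which was at most 9.76 CPM in the other adult libraries. Adult heart mutant 2 had 1240 CPM of lung and airway markers, newborn heart controls 1 and 2 had 5354 and 1921 CPM, and newborn heart mutant 2 had 402 CPM. By Xist and Ddx3y, control 1 and mutant 1 of both adult tissues were female and the other adults male. The newborn mutants were all female, whereas newborn cortex controls 2 and 3 and newborn heart controls 1 and 3 were male. Newborn cortex control 1 was female and newborn heart control 1 male, so these were not from 1 mouse. Counts come with no statement on strand in the sources used here, and 16 of the 42 genes overlap another annotated gene, so some tags of those genes cannot be assigned.

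In the adult cortex these genes were mostly higher in mutants, and in the adult heart they were mostly lower. Of 37 genes with enough counts for a test in cortex, 36 had a mutant mean above the control mean, and the median log2 fold change was 1.00, against 0.00 over all 13291 genes tested. In the heart 36 of 37 tested genes were lower, with a median of -0.56 against 0.01 over 12264 genes. Among the 36 genes tested in both tissues, 34 (94.4%) were higher in cortex and lower in heart, a combination shown by 22.1% of 11112 genes. The genes were chosen with earlier results of these data known, so the shares of all genes given here describe and are not an independent test. No single gene passed the test of either tissue: the edgeR quasi-likelihood test with Benjamini-Hochberg adjustment over all genes called 0 of the 37 in cortex, where 0% of all genes were called in either direction. It called 0 of the 37 in heart, where 0.00815% of genes were called higher and 0.00815% lower. At an unadjusted p under 0.05, 17 genes were higher in cortex, against 3.21% of all genes, and 14 were lower in heart, against 5.09%. DESeq2 called 1 gene in cortex, Lgals3bp, where it called 0.308% of genes higher and 0.0903% lower. It called 5 in heart (Isg15, Bst2, Rsad2, Ifi44 and Gbp3), where it called 0.457% of genes lower and 0.326% higher. Without the filter on low counts edgeR called 1 gene in cortex, where it called 0.0432% of genes higher and 0% lower. In heart it then called 3 (Isg15, Bst2 and Rsad2), against 0.192% of genes lower and 0.102% higher. A further method, limma-voom with quality weights, called 0 of the 37 in either tissue, where it called 0 of 13291 genes in cortex and 17 of 12264 in heart.

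The counts depended on a few libraries. Without adult cortex mutants 4 and 5, a choice made after their levels were seen, 27 of 33 genes were higher in cortex with a median of 0.54, and 5 had an unadjusted p under 0.05, against 1.28% of genes higher. Without adult heart control 1, 33 of 37 genes were lower in heart with a median of -0.47, and 9 had an unadjusted p under 0.05, against 2.65% of genes lower. With both changes, 25 of 33 genes (75.8%) were higher in cortex and lower in heart, against 23% of all genes. With the adult libraries numbered 2 left out of both tissues, this held for 33 of 37 genes (89.2%), against 24.9%. The replicate number as a block in the cortex, which leaves mutants 4 and 5 without a partner, gave a median of 0.56 and called 1 of these genes, Lgals3bp, among 0.361% of all genes.

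**Figure D1:**
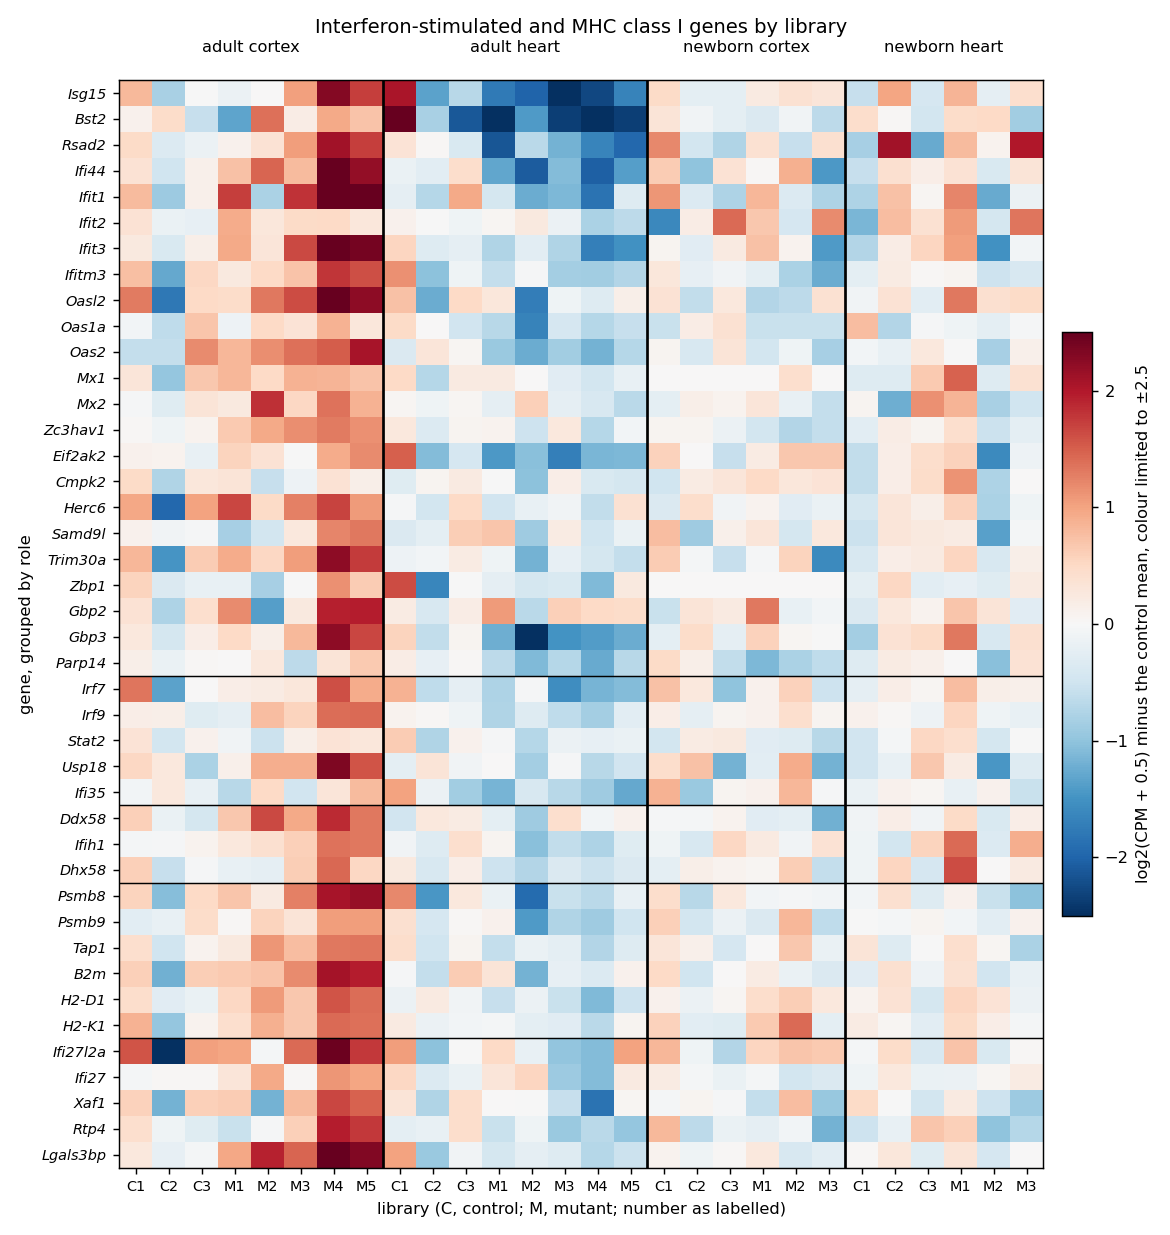
Each cell shows log2(CPM + 0.5) of 1 gene (rows, grouped by role) in 1 library (columns) minus the mean of the controls of that age and tissue; red is higher and blue is lower, limited to ±2.5. Adult cortex mutants 4 and 5 are red in nearly all rows, adult heart mutants are mostly blue, and the newborn blocks show no such split between genotypes.

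The antiviral effectors are the largest group, with 23 of the 42 genes. In cortex 19 of 20 tested effectors were higher in mutants, with a median log2 fold change of 1.14, and in heart 19 of 20 were lower, with a median of -0.96. The exceptions were Cmpk2, a mitochondrial nucleotide kinase, at -0.04 in cortex, and Gbp2, a guanylate-binding GTPase, at 0.50 in heart. Oas1a and Mx1 had too few counts for a test in either tissue, Oas2 in cortex and Mx2 in heart.

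Isg15 (ENSMUSG00000035692, chr4:156199424-156200818) encodes a ubiquitin-like protein that is attached to other proteins. In adult cortex controls 1 to 3 it was at 8.60, 2.46 and 4.69 CPM, and in mutants 1 to 5 at 4.18, 4.75, 10.0, 24.9 and 16.6 CPM. Mutants 4 and 5 were far above the controls and mutants 1 and 2 were inside their range, and the log2 fold change was 1.19 ± 0.63 (SE, 3 against 5 mice) with an unadjusted p of 0.0881 by edgeR, whose model is fitted across all genes. Without mutant 4 it was 0.73, and without mutants 4 and 5 it was 0.26. In adult heart the controls were at 70.0, 6.29 and 10.1 CPM and the mutants at 4.58, 3.81, 2.09, 3.05 and 4.90 CPM. Every mutant heart was below every control heart, yet control 1 set most of the fold: it was -2.95 ± 0.67 with that library and -1.17 without it.

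Rsad2 (ENSMUSG00000020641, chr12:26442746-26456452) encodes viperin, an enzyme that makes a chain-ending nucleotide. Its cortex controls were at 9.08, 4.92 and 5.74 CPM and the mutants at 6.90, 8.31, 13.7, 28.9 and 22.4 CPM, so that mutants 3 to 5 were above all controls and the log2 fold change was 1.28 ± 0.49, or 0.55 without mutants 4 and 5. In heart the controls were at 94.8, 76.6 and 57.0 CPM and the mutants at 16.5, 46.7, 32.6, 23.2 and 18.7 CPM. These groups did not overlap, and the difference of -1.47 ± 0.35 was -1.30 without heart control 1. DESeq2 gave an adjusted p of 0.0324 for Rsad2 in heart, within a range of 0.0324 to 0.988 over all settings.

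Ifi44 (ENSMUSG00000028037, chr3:151730922-151749960) had the smallest p of these genes in the comparison of the tissues. It was at 1.67, 0.703 and 1.36 CPM in cortex controls and at 2.30, 4.15, 2.42, 9.69 and 7.32 CPM in cortex mutants. In heart it was at 7.77, 7.21 and 12.1 CPM in controls and at 3.27, 1.69, 3.90, 1.76 and 3.07 CPM in mutants. The groups were apart in both tissues and in opposite order, with log2 fold changes of 1.98 ± 0.61 in cortex and -1.70 ± 0.37 in heart. The heart value without control 1 was -1.82. Without cortex mutants 4 and 5 the cortex value was 1.14.

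Ifit1 (ENSMUSG00000034459, chr19:34640871-34650009) and Ifit3 (ENSMUSG00000074896, chr19:34583531-34588731) lie in a cluster on chromosome 19, and their proteins act together on foreign RNA ends. Ifit1 was at 4.54, 1.05 and 2.72 CPM in cortex controls and at 9.20, 1.19, 9.70, 25.6 and 23.1 CPM in mutants, with mutant 2 the only one among the controls. Ifit3 was at 7.41, 4.57 and 6.80 CPM in cortex controls and at 12.3, 7.71, 20.4, 41.7 and 34.2 CPM in mutants, which did not overlap. Their log2 fold changes in cortex were 2.26 ± 0.80 and 1.88 ± 0.53, the former the largest of these genes there, and 1.25 and 1.09 without mutants 4 and 5. In heart Ifit1 controls were at 6.91, 4.81 and 16.2 CPM and mutants at 5.88, 3.17, 3.48, 1.92 and 6.44 CPM. Ifit3 controls were at 14.7, 7.95 and 8.52 CPM in heart and mutants at 5.72, 8.24, 5.71, 2.73 and 3.17 CPM. Both pairs of groups overlapped in heart, where the log2 fold changes were -1.15 ± 0.48 and -1.03 ± 0.40. Without heart control 3 the Ifit1 value was -0.46. Ifit3 has a near copy, Ifit3b, and tags that fit both cannot be assigned to either.

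Bst2 (ENSMUSG00000046718, chr8:71534255-71537456), or tetherin, holds budding virus at the cell surface. In cortex it was at 7.65, 9.84 and 4.54 CPM in controls and at 2.51, 19.0, 8.08, 13.9 and 11.8 CPM in mutants, and the groups overlapped. The cortex log2 fold change was 0.61 ± 0.54, or 0.33 without control 3, 0.35 without mutant 2 and 0.42 without mutants 4 and 5. In heart control 1 held 434 CPM and controls 2 and 3 held 32.2 and 12.5 CPM, against 8.83, 20.9, 10.6, 9.46 and 10.7 CPM in mutants. The heart log2 fold change of -3.72 ± 0.88 was the most negative of these genes, and it was -0.92 without control 1, where the groups overlap as well.

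Eif2ak2 (ENSMUSG00000024079, chr17:78852564-78882573) encodes PKR, a kinase that double-stranded RNA switches on and that slows translation. It was at 2.15, 2.11 and 1.66 CPM in cortex controls and at 3.14, 2.67, 1.94, 4.20 and 5.10 CPM in mutants, where mutant 3 was among the controls, and the log2 fold change was 0.80 ± 0.40. In heart control 1 was at 24.6 CPM, controls 2 and 3 at 3.70 and 6.11 CPM, and mutants at 2.78, 3.81, 2.23, 3.53 and 3.56 CPM. The heart groups overlapped, and control 1 carried the difference, which was -1.84 ± 0.53 with it and -0.65 without it.

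Gbp3 (ENSMUSG00000028268, chr3:142560026-142573209) is a guanylate-binding GTPase that acts on pathogens inside cells. Its cortex controls were at 2.63, 1.41 and 2.42 CPM and the mutants at 3.14, 2.37, 4.04, 11.7 and 7.77 CPM, with only mutant 2 among the controls. In heart the controls were at 10.2, 4.25 and 7.07 CPM and all 5 mutants were below them, at 2.62, 0.423, 2.09, 2.25 and 2.59 CPM. The log2 fold change was 1.40 ± 0.57 in cortex, 0.54 there without mutants 4 and 5, and -1.80 ± 0.48 in heart.

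Zc3hav1 (ENSMUSG00000029826, chr6:38305286-38354603) encodes ZAP, which binds CpG-rich viral RNA. It was one of the more even genes in cortex: controls were at 4.30, 3.87 and 4.54 CPM and mutants at 6.90, 8.60, 10.0, 11.2 and 9.98 CPM. All 5 mutants were above all controls, with a log2 fold change of 1.13 ± 0.25 that was 0.99 without mutants 4 and 5. Heart controls were at 15.5, 10.2 and 13.7 CPM and mutants at 13.7, 8.88, 15.7, 7.70 and 12.3 CPM, which overlapped (-0.17 ± 0.30).

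Ifitm3 (ENSMUSG00000025492, chr7:141009586-141010770) encodes a membrane protein that hinders the entry of enveloped viruses. In cortex it was at 44.7, 10.5 and 37.5 CPM in controls and at 30.9, 37.4, 43.3, 92.1 and 80.8 CPM in mutants, with mutants 4 and 5 alone above the controls. The cortex value was 0.86 ± 0.49, or 0.46 without control 2 and 0.24 without mutants 4 and 5. In heart the controls were at 471, 105 and 198 CPM and the mutants at 140, 210, 118, 116 and 129 CPM. The heart value was -0.85 ± 0.42 and came to -0.10 without control 1.

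Among the factors and feedback genes, 5 of 5 were higher in cortex (median log2 fold change 0.38) and 5 of 5 were lower in heart (median -0.56). Irf9 (ENSMUSG00000002325, chr14:55603571-55610030) is the DNA-binding part of the complex at the ISRE. It was at 13.9, 13.7 and 9.98 CPM in cortex controls and at 10.5, 21.4, 18.4, 33.4 and 34.0 CPM in mutants, where mutant 1 was inside the control range. In heart its controls were at 30.4, 29.2 and 26.8 CPM and its mutants, all lower, at 16.8, 23.04, 18.4, 15.7 and 23.8 CPM. The log2 fold changes were 0.92 ± 0.37 and -0.56 ± 0.23, and the cortex value was 0.42 without mutants 4 and 5. Irf9 overlaps Rnf31 on the same strand. Usp18, which takes Isg15 off its targets and damps the receptor, had 1.54 in cortex and -0.45 in heart, and Stat2 had 0.02 and -0.36. For Irf7, the factor that drives interferon-alpha genes, the values were 0.38 and -1.03, and for Ifi35 0.21 and -1.08.

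Of the RNA sensors, Ddx58 and Ifih1 could be tested and Dhx58 could not, and their median log2 fold change was 1.21 in cortex and -0.33 in heart. Ddx58 (ENSMUSG00000040296, chr4:40203773-40239828) encodes RIG-I, which detects the 5′ ends of viral RNA. Its cortex controls were at 3.35, 1.76 and 1.36 CPM and its mutants, all higher, at 3.56, 7.42, 4.37, 8.77 and 5.77 CPM, a log2 fold change of 1.47 ± 0.44. In heart its controls were at 4.10, 7.21 and 6.91 CPM and its mutants at 4.90, 2.96, 8.07, 5.61 and 6.44 CPM, so that the groups overlapped throughout (-0.11 ± 0.37). The heart value lay between -0.35 without control 1 and 0.0361 without mutant 2. Ifih1, or MDA5, which detects long double-stranded RNA, had 0.95 in cortex and -0.55 in heart.

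All 6 genes of class I presentation were higher in cortex (median log2 fold change 1.04) and all 6 were lower in heart (median -0.52). B2m (ENSMUSG00000060802, chr2:122147686-122153083) is the light chain of every class I molecule. In cortex it was at 183, 52.0 and 186 CPM in controls and at 190, 198, 275, 511 and 471 CPM in mutants. Mutants 1 and 2 were only just above controls 1 and 3, mutants 4 and 5 were well above them, and the log2 fold change was 1.23 ± 0.48, or 0.82 without control 2 and 0.64 without mutants 4 and 5. In heart B2m controls were at 252, 170 and 401 CPM and mutants at 324, 114, 224, 204 and 278 CPM. These overlapped (-0.26 ± 0.38), and the value was 0.13 without heart control 3.

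H2-D1 (ENSMUSG00000073411, chr17:35262730-35267499) is a class I heavy chain, and its groups were apart in both tissues. Cortex controls were at 65.2, 39.4 and 42.9 CPM and mutants at 68.8, 100.3, 76.5, 144 and 127 CPM. Heart controls were at 108.2, 141 and 113 CPM and mutants at 79.8, 107.8, 81.4, 55.6 and 83.7 CPM, where heart mutant 2 was just under heart control 1. The log2 fold changes were 1.07 ± 0.29 and -0.56 ± 0.26. H2-K1, the other heavy chain, had 0.82 in cortex and -0.22 in heart. H2-D1 and H2-K1 are near copies of each other and of other class I genes, so the split of tags between them is uncertain. Psmb8 and Psmb9, immunoproteasome subunits that cut proteins into peptides, had 1.34 and 0.65 in cortex and -0.96 and -0.67 in heart. Tap1, which carries peptides into the endoplasmic reticulum, had 1.00 and -0.47, and it overlaps Psmb9 on the other strand.

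In the last group 4 of 4 tested genes were higher in cortex and 4 of 4 lower in heart. Lgals3bp (ENSMUSG00000033880, chr11:118392751-118402092) encodes a secreted glycoprotein that binds galectin-3. It was at 13.4, 9.49 and 10.6 CPM in cortex controls and at 21.96, 43.0, 31.2, 68.7 and 56.8 CPM in cortex mutants, and every mutant was above every control. The log2 fold change was 1.98 ± 0.38, with an adjusted p of 0.285 by edgeR, 0.0497 with the replicate number as a block and 0.000319 by DESeq2, in a range of 0.000319 to 1.00 over all settings. Without mutant 4 the cortex value was 1.75. In heart its controls were at 53.5, 13.5 and 24.8 CPM and its mutants at 19.1, 22.4, 20.9, 15.9 and 18.0 CPM. There the value was -0.67 ± 0.37, and it was -0.01 without control 1 and -1.02 without control 2.

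Ifi27 (ENSMUSG00000064215, chr12:103434211-103440239) encodes a small hydrophobic protein. It was at 34.2, 36.2 and 36.3 CPM in cortex controls, a narrow range, and at 44.1, 68.5, 36.4, 76.8 and 71.0 CPM in mutants, where mutant 3 was only just above the controls. The log2 fold change was 0.74 ± 0.26, or 0.47 without mutants 4 and 5. In heart it was at 64.8, 35.5 and 40.6 CPM in controls and at 56.4, 66.4, 24.1, 21.2 and 53.3 CPM in mutants (-0.09 ± 0.41), with a sign that turned without heart control 1 (0.20), mutant 3 (0.07) or mutant 4 (0.09). Rtp4, a chaperone of receptor transport, had 1.10 in cortex and -0.68 in heart.

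**Figure D2:**
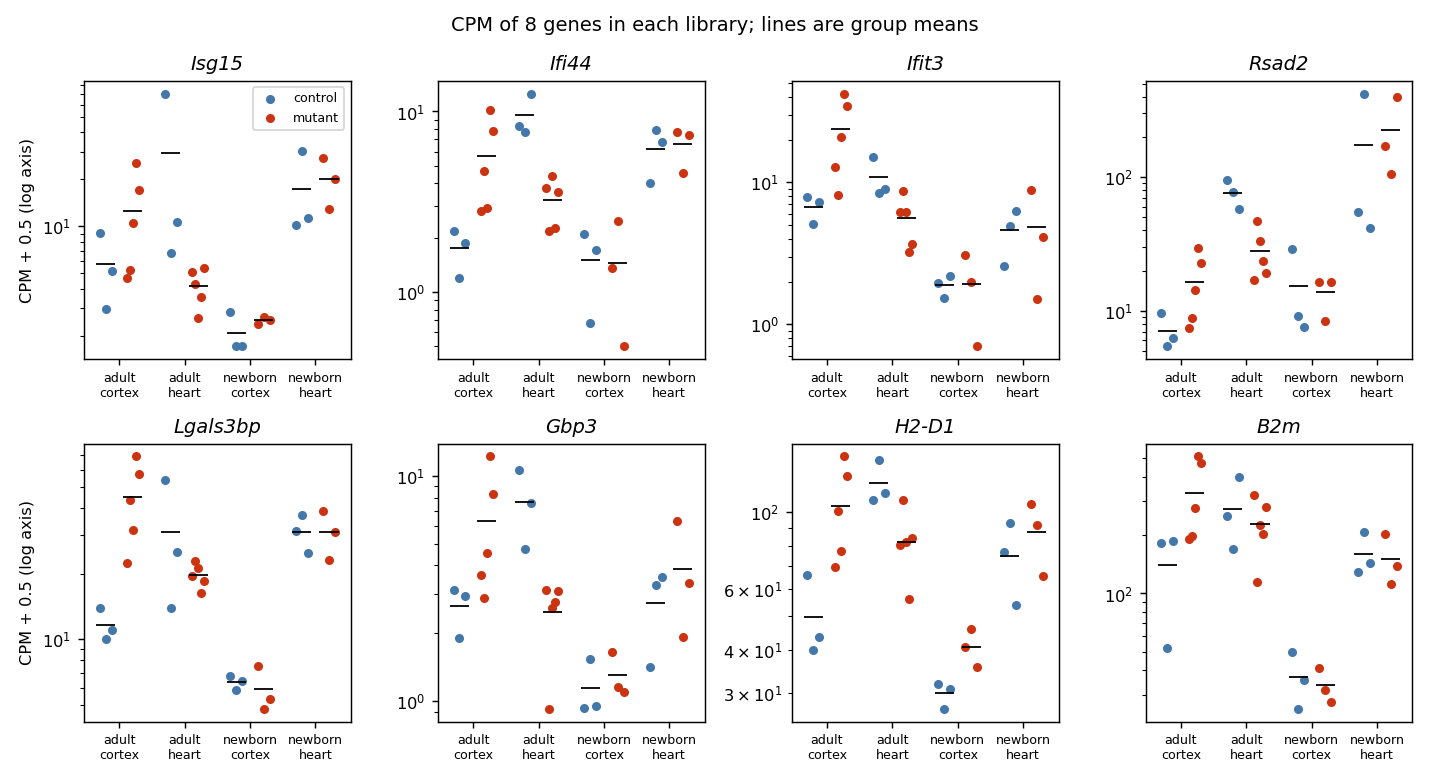
Points are CPM + 0.5 of 8 genes in each library on log axes, blue for controls and red for mutants, and lines are group means in the 4 sets of age and tissue. In adult cortex the mutants reach higher than the controls and in adult heart they sit lower, with the control at 70.0 CPM of Isg15 being adult heart control 1.

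Full separation of the groups was counted over all genes. In cortex 9 of the 37 genes had every mutant above every control (Ifi44, Ifit3, Zc3hav1, Ddx58, Ifih1, B2m, H2-D1, Ifi27 and Lgals3bp), against 2.59% of genes, and 0 had every mutant below, against 1.63%. Leaving out a library can only keep or raise such a count, so these counts do not show how far it rests on those libraries. The count stayed at 9 without mutants 4 and 5, while the share of all genes rose to 3.98%. It also stayed at 9 without control 2, while that share rose to 6.77%. In heart 8 of the 37 had every mutant below every control (Isg15, Rsad2, Ifi44, Oas2, Gbp3, Parp14, Irf9 and H2-D1), against 2.5% of genes, and 0 had every mutant above, against 2.44%. With heart control 1 left out, which likewise cannot lower the count, 9 genes were fully below, against 4.8%. Ifi44 and H2-D1 were on both lists, and the share of all genes on both was not counted.

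The difference between the tissues was tested itself, as the heart effect minus the cortex effect in 1 model of all 16 adult libraries. All 39 genes with a value were negative, with a median of -1.52 against -0.01 over 14814 genes. edgeR called 0 of the 39, where 0% of genes were called lower, and 27 had an unadjusted p under 0.05, against 4.49% of genes in that direction. DESeq2 called 8 (Isg15, Bst2, Rsad2, Ifi44, Ifit3, Gbp3, H2-D1 and Lgals3bp), against 0.29% of genes lower and 0.101% higher. Without the filter on low counts edgeR called 5, against 0.0429% of genes lower and 0.00715% higher. By limma-voom with quality weights 0 of the 39 were called, where it called 2 of 14814 genes. All 6 class I genes were among the 27. Ifi44 had the smallest adjusted p, 0.167, with a difference of -3.68 ± 0.71, followed by Lgals3bp at -2.65 ± 0.55 (adjusted p 0.211) and Rsad2 at -2.76 ± 0.63 (adjusted p 0.238). Isg15 and Bst2 had the widest differences, -4.13 ± 1.02 and -4.33 ± 1.17, which were -2.35 and -1.53 without heart control 1. Without heart control 1, 38 of 39 genes were negative and 20 had an unadjusted p under 0.05, against 2.98% of genes. Without mutants 4 and 5 of both tissues, 35 of 37 were negative with a median of -0.99, and 12 had an unadjusted p under 0.05, against 2.07%. Xaf1 had too few counts for a test in either adult tissue alone and was tested in this model.

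**Figure D3:**
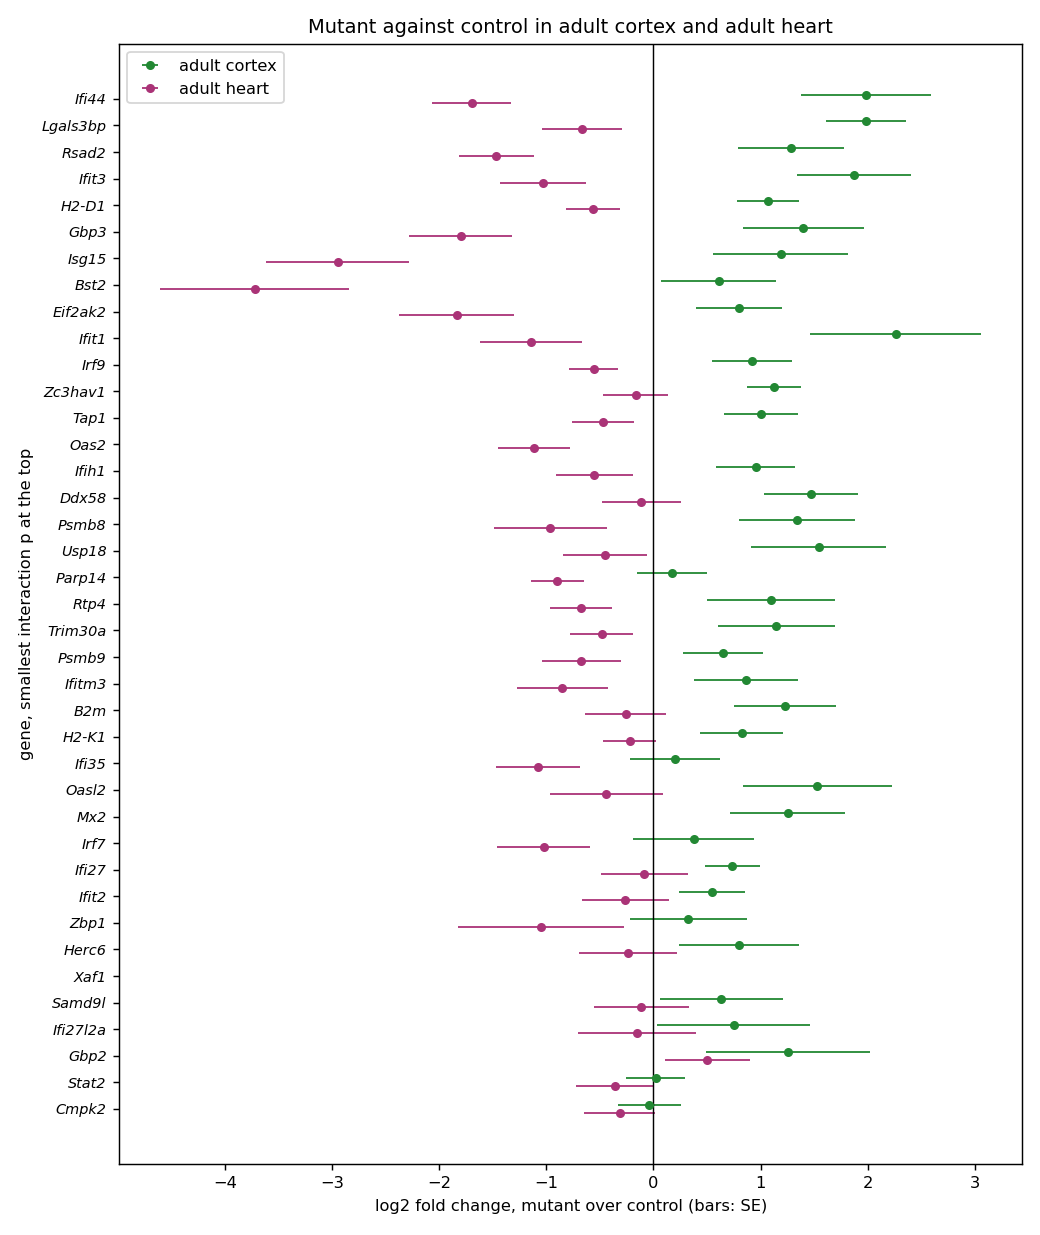
Points are log2 fold changes of mutants over controls in adult cortex (green) and adult heart (purple), bars are SE, and genes are ordered by the p of the difference between the tissues, smallest on top. Nearly all green points are right of 0 and nearly all purple points left of 0; a gene with 1 or no point had too few counts in that tissue.

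The libraries did not contribute alike. Over the 37 genes tested in cortex, the median log2 difference from the control mean was 0.32, 0.48 and 0.67 in mutants 1 to 3 and 1.62 and 1.39 in mutants 4 and 5. All 37 genes were above the control mean in mutants 4 and 5, and these held the highest value of 23 and 9 genes. Control 1, at 0.42, was level with mutants 1 and 2, and control 2, at -0.37, held the lowest value of 21 genes. In heart the 5 mutants had medians of -0.45, -0.72, -0.61, -0.85 and -0.49, and the controls 0.26, -0.35 and 0.03. Heart control 1 held the highest value of 20 genes. Mutant 4 had the lowest median in heart and the highest in cortex, but the labels do not say whether these libraries come from 1 mouse.

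Microglia and macrophage markers had higher mean levels in cortex mutants, but the 2 lists did not order the libraries alike. The 10 microglia markers summed to 402, 326.5 and 344 CPM in controls 1 to 3 and to 373, 532, 532, 860 and 736 CPM in mutants 1 to 5. They were highest in mutants 4 and 5, and mutant 1 was below control 1. All 10 had a higher mutant mean, 6 had an unadjusted p under 0.05, against 3.21% of all genes higher, and 0 were called by edgeR. The 12 macrophage markers summed to 160.5 to 240 CPM in controls and to 229, 937, 430, 790.5 and 633 CPM in mutants, and 10 of the 10 tested were higher. Their sum was highest in mutant 2, where the median of the 37 genes was 0.48, against 1.62 and 1.39 in mutants 4 and 5. No marker of either list was at 0 counts. T and NK cell markers summed to 164 to 410 CPM in controls and 168 to 327 CPM in mutants. Of these 11 markers, which include Thy1, only 2 had enough counts for a test in cortex, and both were lower in mutants. The sum therefore does not stand for the whole list or for the number of these cells. Dendritic cell markers, of which Xcr1 was at 0, summed to 1.76 to 5.74 CPM in controls and 5.44 to 18.5 CPM in mutants. In heart the macrophage markers summed to 911, 355 and 283 CPM in controls and to 290, 653, 228, 219 and 226 CPM in mutants. Endothelial markers there summed to 1129 to 1588 CPM and 731 to 1951 CPM, and T and NK cell markers to 16.1 to 20.5 CPM and 4.23 to 14.6 CPM. Only 3 of the 11 T and NK cell markers could be tested in heart, with 1 higher and 2 lower in mutants, so this sum has the same limit as in cortex. The part of these cells in the results was not tested. In bulk tissue, more or fewer cells of a type and more or less RNA per cell cannot be told apart.

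**Figure D4:**
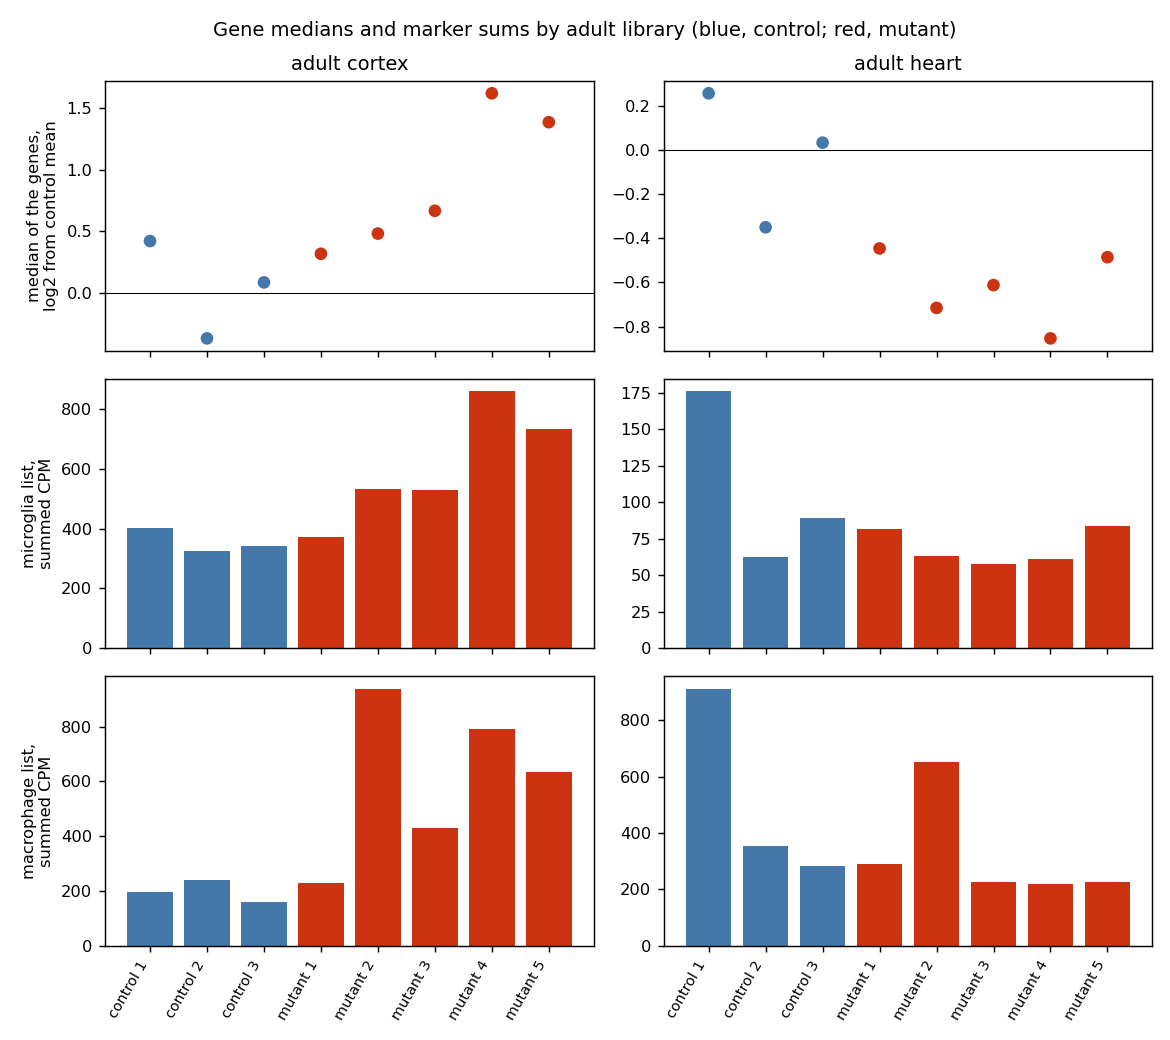
Panels show, for each adult library, the median log2 difference from the control mean over the 37 genes tested, and the summed CPM of the microglia and macrophage marker lists (blue, control; red, mutant). In cortex mutants 4 and 5 are highest in the gene median and in the microglia sum, and in heart control 1 has the highest macrophage sum, 911 CPM; heart macrophages express several genes of the microglia list.

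Other genes of the pathway were read from lists kept apart from the 42, and edgeR called 0 of them in either adult tissue. These lists were also chosen with earlier results of these data known, and the genes named from them were picked by their small p. Of the 11 interferon genes, 10 had 0 counts in all 28 libraries and Ifng had 2 counts in total. A count of 0 allows up to 3 counts, or 0.342 to 1.00 CPM per library. Receptors and their kinases were mixed, with 6 of 8 tested higher in cortex and 4 of 9 in heart. Il10rb, a receptor chain that interferon-lambda also uses, had 1.08 ± 0.43 in cortex, and Jak1 had 0.51 ± 0.24 in heart. Further signal transducers and factors were higher in cortex for 5 of 5 and lower in heart for 5 of 5. Among them Irf8, a factor of myeloid cells, was at 10.1 to 13.4 CPM in cortex controls and at 15.7 to 36.5 CPM in mutants, with no overlap (1.29 ± 0.29), and Irf1 had -0.53 ± 0.27 in heart.

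Other interferon-induced genes followed the same order, with 26 of 27 higher in cortex (median 0.70) and 29 of 36 lower in heart (median -0.37). At an unadjusted p under 0.05, 6 of them were higher in cortex, against 3.21% of all genes, and 10 were lower in heart, against 5.09%. Tor3a was at 5.29 to 6.68 CPM in cortex controls and 9.54 to 16.4 CPM in mutants (1.10 ± 0.27). Slfn5 was at 73.6 to 236 CPM in heart controls and 41.8 to 65.9 CPM in mutants (-1.28 ± 0.36). Of the GTPases and chemokines induced mainly by interferon-gamma, 8 of 8 were higher in cortex and 6 of 9 lower in heart. Cxcl10, which draws activated T cells, was at 0.703 to 2.63 CPM in cortex controls and 3.56 to 23.2 CPM in mutants (2.82 ± 0.77). Ccl5 was at 0.956 to 1.41 CPM and 2.91 to 7.13 CPM (1.84 ± 0.43). Gbp5 was at 4.02 to 14.0 CPM in heart controls and 1.73 to 3.48 CPM in heart mutants (-1.84 ± 0.43). None of these 5 pairs of groups overlapped, but the 5 genes were picked by the smallest p in their lists, which favours separation. Over all genes, 2.59% had every mutant above every control in cortex and 2.5% had every mutant below in heart.

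Further genes of class I presentation were higher in cortex for 9 of 12 (median 0.32) and lower in heart for 11 of 13 (median -0.31). Psme1, a subunit of the proteasome activator, had 0.54 ± 0.18 in cortex, and Tapbpl, a peptide editor, had -1.83 ± 0.56 in heart. Class II genes, which present peptides to helper T cells, were mixed in cortex, with 4 of 6 higher and a median of 0.08, and were lower in heart for 6 of 6, with a median of -0.71. Nucleic acid sensing genes were higher in cortex for 8 of 11 and lower in heart for 5 of 9. Negative regulators were higher in cortex for 4 of 7 and lower in heart for 4 of 6, and Socs3, which blocks Jak kinases, had 1.55 ± 0.49 in cortex.

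In newborns the 2 genotypes were close and many of the genes were near the detection limit. All newborn mutants were female and most newborn controls male, so genotype and sex cannot be fully told apart here. CPM were scaled within each age and tissue, so levels at both ages are given side by side and were not tested against each other. In newborn cortex 21 of the 42 genes had enough counts, 10 were higher and 11 lower in mutants, and the median log2 fold change was -0.11 against -0.003 over 13694 genes. edgeR called 0 of the 21, where 0% of genes were called, and DESeq2 called 0, against 0.0073% of genes higher and 0.0146% lower. At an unadjusted p under 0.05, H2-D1 was higher, against 1.02% of genes, and Ifitm3 was lower, against 1.07%. Zbp1, a sensor of Z-form nucleic acid, had 0 counts in all 6 libraries, which allows up to 3 counts, or 0.42 to 0.593 CPM.

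H2-D1 was at 31.5, 26.5 and 30.3 CPM in newborn cortex controls and at 40.1, 45.5 and 35.3 CPM in mutants, with no overlap (log2 fold change 0.45 ± 0.17). Ifitm3 was at 23.6, 16.6 and 18.1 CPM in controls and at 16.2, 10.9 and 7.82 CPM in mutants, just apart (-0.73 ± 0.29). H2-D1 was the 1 gene of the 21 with every mutant above every control, against 3.36% of genes, and Ifitm3, Zc3hav1 and Ddx58 had every mutant below, against 3.53%. Zc3hav1 was at 3.79, 3.81 and 3.20 CPM in controls and at 2.46, 1.98 and 2.21 CPM in mutants (-0.69 ± 0.37). Ddx58 was at 3.35, 3.29 and 3.66 CPM and at 2.74, 2.80 and 1.20 CPM (-0.59 ± 0.42). In adult cortex the mutant means of Ifitm3, Zc3hav1 and Ddx58 were above the control means; the difference between ages was not tested.

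For the other named genes the newborn cortex groups overlapped. B2m was at 49.5, 24.7 and 35.2 CPM in controls and 40.4, 31.3 and 27.1 CPM in mutants, beside 52.0 to 186 CPM in adult cortex controls. Rsad2 was at 28.7, 8.65 and 7.01 CPM and at 16.03, 7.91 and 16.04 CPM, where newborn control 1 was highest. Irf9 was at 16.8, 12.6 and 15.7 CPM and at 16.03, 20.3 and 15.6 CPM. For all 3 genes the mutant range crossed the control range. Ifi27 was at 13.8, 11.6 and 10.7 CPM and at 11.6, 8.57 and 9.22 CPM. Lgals3bp was at 6.26, 5.36 and 5.94 CPM and at 7.08, 4.28 and 4.81 CPM. Bst2 was at 5.24, 3.81 and 3.35 CPM and at 3.03, 3.79 and 2.41 CPM. The remaining named genes were lower still. Eif2ak2 was at 3.35, 2.08 and 1.22 CPM in controls and 2.46, 3.62 and 3.61 CPM in mutants. Isg15 was at 2.33, 1.21 and 1.22 CPM and at 1.88, 2.14 and 2.00 CPM. Ifit3, Ifi44, Ifit1 and Gbp3, with 0 to 2.60 CPM in every library, were not tested.

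In newborn heart 36 genes were tested, 21 were higher and 15 lower in mutants, and the median log2 fold change was 0.11 against -0.01 over 12876 genes. edgeR called 0 of the 36, where 0% of genes were called, 0 had an unadjusted p under 0.05, against 1.13% of genes higher and 1.41% lower. DESeq2 also called 0, against 0.0155% of genes higher and 0.0621% lower. Rsad2 varied most between mice, at 54.7, 421 and 40.8 CPM in controls and 170, 105 and 395 CPM in mutants, a spread of the same order in both genotypes. Adult hearts held 16.5 to 94.8 CPM. Ifitm3 was at 135, 183 and 164 CPM in controls and 168, 112 and 120.4 CPM in mutants. B2m was at 129, 208 and 144 CPM and at 204, 112 and 138 CPM. H2-D1 was at 76.4, 92.2 and 53.3 CPM and at 105.3, 91.3 and 65.1 CPM. All of these overlapped, with log2 fold changes between -0.27 and 0.38.

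The other newborn heart values overlapped too. Irf9 was at 44.3, 41.8 and 37.5 CPM in controls and 59.8, 38.2 and 36.2 CPM in mutants. Bst2 was at 47.0, 34.98 and 24.8 CPM and at 47.6, 49.0 and 18.6 CPM, with none of the high control seen in adult heart. Lgals3bp was at 31.1, 36.8 and 24.3 CPM and at 38.3, 22.6 and 30.7 CPM. Ifi27 was at 23.5, 30.2 and 22.6 CPM and at 22.9, 26.02 and 29.3 CPM. Zc3hav1 was at 18.0, 24.9 and 22.7 CPM and at 29.1, 14.8 and 18.1 CPM. In Isg15, at 9.67, 29.6 and 10.9 CPM in controls and 26.8, 12.4 and 19.7 CPM in mutants, control 2 was highest. Ddx58 was at 9.67, 11.6 and 9.61 CPM and at 14.6, 7.72 and 11.5 CPM. Eif2ak2 was at 6.14, 10.9 and 13.3 CPM and at 14.6, 2.85 and 8.82 CPM. Mutant 1 was at the top and mutant 2 at the bottom in many of these genes. Ifi44 was at 3.53, 7.37 and 6.25 CPM and at 7.21, 4.07 and 6.93 CPM. Ifit3 was at 2.09, 4.42 and 5.76 CPM and at 8.32, 1.02 and 3.62 CPM. Ifit1 was at 1.04, 3.87 and 2.24 CPM and at 5.69, 0.61 and 1.89 CPM. Gbp3, at 0.914, 2.76 and 3.04 CPM and at 5.83, 1.42 and 2.84 CPM, had mutant 1 highest as well.

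Oasl2, an oligoadenylate synthetase-like protein, was at 4.18, 5.89 and 3.68 CPM in newborn heart controls and at 11.9, 6.10 and 6.46 CPM in mutants (0.84 ± 0.40). It was the 1 gene there with every mutant above every control, against 3.29% of genes, and 0 had every mutant below, against 3.18%. Newborn heart mutant 1 held the highest value of 19 of the 36 genes and mutant 2 the lowest of 16. Without mutant 1, 9 of 36 genes were higher in mutants, and without mutant 2, 29 of 36 were. Newborn heart mutant 2 had 402 CPM of lung and airway markers, against 9.15 and 6.46 CPM in mutants 1 and 3, and the part of these markers in its values was not tested. Newborn heart controls 1 and 2 were extracted with TRIzol and the other newborn hearts, mutant 2 among them, with the RNeasy kit, per the first passage of their protocols. Among the hearts extracted with RNeasy alone, which leaves 1 control against 3 mutants, the median log2 fold change was 0.12. The difference between newborn tissues was called by edgeR for 0 of 35 genes, where 0% of genes were called, and 0 had an unadjusted p under 0.05, against 0.99% of genes higher and 1.46% lower. The median of that difference was 0.12, with 20 genes positive and 15 negative.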

How the data were processed

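RNA was prepared with a QuantSeq 3′ kit and, per the submitters' processing notes, aligned with STAR to GRCm38. The counting tool, its annotation and its strand setting were not given in the sources used here. Here the authors deposited 1 table of raw counts per gene for each of 28 libraries, and no other deposited values were used. The genes and lists, and the rule for naming genes, were chosen with earlier results of these data known. Values in every library are given for the 12 genes with the smallest p in the adult difference between tissues and for the highest gene of each role. Of each pathway list up to 2 genes with the smallest p per adult tissue could be named. Symbols and positions are from GENCODE M21.

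Genes passing filterByExpr were scaled by TMM within each comparison and tested with edgeR 4.0.16 (R 4.3.3), with Benjamini-Hochberg adjustment across every gene in the fit and a threshold of 0.05. SE was taken as |log2 fold change|/√F. The 6 fits were mutants against controls in each age and tissue and, for each age, the difference between tissues. Those differences treat cortex and heart as independent. Replicates are mice per the design text. Libraries with the same number were checked for pairing from the counts alone, since the labels do not state it. In adult cortex their deviations from the group means correlated with r of 0.323, 0.721 and 0.356. The block was therefore read as a possible pairing there, but only as an alternative, and the main cortex values are from the unpaired fit. That pairing is uncertain, since control 3 matched mutant 4 best and the r of 0.721 belongs to the libraries numbered 2, which share high Ccdc36. No 2 libraries of a group were alike within counting noise. Alternatives were RLE and upper-quartile scaling, no filter on low counts, a mean of 10 counts as the filter, limma-voom (limma 3.58.1) with quality weights, DESeq2 1.42.0, Xist as a covariate, the replicate block, both ages in 1 fit, RNeasy hearts only in newborns, and left-out libraries. Leaving out mutants 4 and 5, or heart control 1 together with the libraries numbered 2, was chosen after seeing the data. The code was run on simulated counts with the same spread for every gene. That spread need not match these libraries, so the run does not show how well changes can be found in them.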

Additional observations from a re-analysis of the deposited data

Results flagged for a closer look

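Among 32 groups of adult mutants (16 named genes in both tissues), 3 had 1 mouse standing apart from the other 4 by the gap to its nearest neighbour, where chance gives about 1 in 20. All 3 were adult heart mutant 2. It had the lowest Gbp3, at 0.423 CPM, with the others at 2.09 to 2.62 CPM. It had the highest Bst2, at 20.9 CPM, with the others at 8.83 to 10.7 CPM. It also had the highest Ifitm3, at 210.3 CPM, with the others at 116 to 140 CPM. The same library had 1240 CPM of lung and airway markers and 333 CPM of neutrophil markers, against 3.76 to 60.6 CPM and 11.05 to 50.2 CPM in the other heart mutants. Their part in these values was not tested.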

How the results depend on the processing

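The direction of the adult results held in every setting: 27 to 41 genes were higher in cortex, 32 to 41 lower in heart and 35 to 42 negative in the difference between tissues. The number of genes called was not stable. Without a count filter edgeR called 1 in adult cortex, 3 in adult heart and 5 in the difference. DESeq2 called 1, 5 and 8, and the replicate block called 1 in adult cortex. By limma-voom with quality weights 0 were called in all 3, where it called 0 of 13291, 17 of 12264 and 2 of 14814 genes. The adult heart median was -0.74 without the libraries numbered 2 and -0.79 to -0.47 with 1 library left out. In newborn cortex, 17 genes were higher without a filter (of 41) and 6 with Xist as a covariate, and the median was 0.20 by limma-voom and -0.19 to 0.11 with 1 library left out. In newborn heart, 12 genes were higher with Xist as a covariate and 9 to 29 with 1 library left out. The values of 3 named genes reversed in adult heart: Ddx58 was 0.17 without the libraries numbered 2 and -0.35 to 0.0361 with 1 library left out, B2m was -0.52 to 0.13, and Ifi27 was 0.0544 without mutants 4 and 5 and -0.28 to 0.20. The causes were not tested. Of 1055 alternative values of the named genes in the adult comparisons, 1023 kept direction and were not called, 24 were newly called and 8 reversed. The main edgeR fits called 0 of these genes, so no call could be lost. Outside adult cortex, same-numbered libraries correlated at -0.19 to 0.34 in adult heart, 0.05 to 0.43 in newborn cortex and -0.17 to 0.20 in newborn heart, and share only a number; the replicate block called 0 genes of the 42 there. Genes under about 3 counts per library could not be compared at this depth, and 3 adult controls against 5 mutants limit single-gene calls.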

Other observations

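In newborns the further lists of the pathway differed in their direction. Other interferon-induced genes were higher in mutants for 7 of 18 in cortex and 24 of 36 in heart, with medians of -0.06 and 0.13. Further genes of class I presentation were higher for 6 of 10 in cortex and 2 of 11 in heart, whereas receptors with their kinases were mostly higher in both, for 6 of 8 and 8 of 9. edgeR called 0 genes of these lists, where 0% of all genes were called in both tissues. Microglia markers summed to 81.0 to 146 CPM in newborn cortex controls and 99.3 to 140 CPM in mutants, and macrophage markers to 121 to 211 CPM in newborn heart controls and 162 to 321 CPM in mutants.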
